A study of Mus musculus with 6 samples.

Results

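The genes of bile acid synthesis and conjugation were followed in hepatocytes after Sox4 was delivered to the liver by adeno-associated virus (AAV). The 10 genes were chosen by symbol from the knowledge of the pathway, with earlier results of these data known. All 10 were found among the 53599 symbols of the deposited count table: Cyp7a1, Cyp8b1, Cyp27a1, Cyp7b1, Hsd3b7, Akr1d1, Slc27a5, Amacr, Acox2 and Baat. Of these, 9 passed the filter on low counts and were tested together with 12691 genes in all, and Hsd3b7 did not pass. Hepatocytes came from young male Rosa-LSL-Cas9-EGFP mice on a C57BL/6J background, labelled wild type, which carry Cas9 and EGFP behind a stop cassette that Cre removes. The Sox4 group (3 mice) received AAV8-TBG-HA-Sox4-P2A-Cre, and the empty vector (EV) group (3 mice) received AAV8-TBG-Cre. Both groups therefore carried Cre, neither vector as labelled carries a guide RNA, and the TBG promoter limits either payload largely to hepatocytes. The study's methods describe an empty vector with a guide RNA backbone and build the Sox4 vector on another TBG plasmid. The vectors may thus differ in more than Sox4. Cells were harvested 4 days after injection by liberase digestion and Percoll enrichment, so the preparations are enriched rather than sorted.

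The liver turns cholesterol into bile acids along 2 main routes. The classical route starts in the endoplasmic reticulum with Cyp7a1, the acidic route starts in mitochondria with Cyp27a1, and both then use common enzymes that alter the steroid rings, shorten the side chain in peroxisomes and join the product to taurine or glycine. Bile acids repress their own synthesis through the receptor FXR (Nr1h4) and through a gut hormone that signals by way of Fgfr4 and its partner Klb.

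Total counts ranged from 15090629 to 16964860 per library. Sox4 itself had between 0 and 3 counts in the EV libraries and between 11816 and 21697 in the Sox4 libraries. Levels are given as CPM (counts scaled to a common library size of 1e06) on sizes scaled by the trimmed mean of M-values (TMM), and the scaled sizes of the Sox4 libraries were on average 1.48 times those of EV, while their total counts were 1.07 times as large. Scaling by library size alone moved the median log2 fold change of all genes by 0.47, from 0.04 to 0.51, and results that changed with it are marked. Counts over a gene list are to be read against the shares of all tested genes called, which were 26.0% lower and 29.0% higher with TMM and 12.8% lower and 51.0% higher with library size alone. Hepatocyte markers in EV summed to 111708 to 137874 CPM, and in Sox4 to 86475 to 100282 CPM, where Alb and Apoa1 were lower and Apob, Ttr and Ahsg did not pass the test (median log2 fold change of the 5 tested markers -0.20). Tf, the 1 other marker listed, stands in the table as Trf and was read after the data were seen: it was lower (-0.74, adjusted p = 0.00370), which makes 3 of 6 markers lower with a median of -0.39. In EV the 7 cholangiocyte markers summed to 27.5 to 43.7 CPM, and in Sox4 to 71.5 to 84.7 CPM, with 2 of 4 tested (Spp1, Epcam) higher and with Krt19 and Krt7, which define mature duct cells, at 0 in every EV library and at most 0.451 CPM in Sox4. In EV the stellate cell markers summed to 8.32 to 43.2 CPM, and in Sox4 to 72.7 to 134 CPM (1 of 2 tested higher, 4 not tested). Reln, the 1 called, made up most of this sum in every library. It had 7.09, 22.6 and 37.5 CPM in the EV libraries against 126, 117 and 50.8 CPM with Sox4. Dcn, the other tested marker, overlapped between groups and did not pass (adjusted p = 0.0504). Kupffer cell markers summed to 9.25 to 23.1 against 21.5 to 54.1 CPM (2 of 6 tested higher), and endothelial markers to 14.0 to 21.0 against 11.7 to 26.5 CPM (2 of 6 higher, 1 lower). With library size alone, 1 of the 5 tested hepatocyte markers was lower and 1 higher, with a median of 0.27. On that scaling 3 of 4 tested cholangiocyte markers and 2 of 2 tested stellate cell markers were higher. So were 5 of 6 Kupffer cell markers and 2 of 6 endothelial markers, and 0 of these were lower. The part of other cells in the differences below was not tested. In bulk RNA, fewer cells of a type and less RNA per cell cannot be told apart.

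Most of the pathway was lower in Sox4 hepatocytes. At an adjusted p under 0.05 (edgeR), 7 of the 9 tested genes were lower and 0 were higher (0 also at an unadjusted p under 0.05), against 26.0% of all tested genes lower and 29.0% higher. The median log2 fold change of the 9 was -2.43, against 0.04 over all genes. The 2 genes that did not pass were Cyp7a1, which catalyses the first step of the classical route, and Acox2, a peroxisomal oxidase of the side chain. In all 7 genes called, the groups did not overlap, which held for a lower level in Sox4 in 29.9% of all tested genes. With library size alone, 6 of the 9 were lower, against 12.8% of all tested genes, and the median of the 9 was -1.96. No fit gave a higher call for any of the 9.

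Together the 10 genes held 51449, 40360 and 41618 counts in the EV libraries and 18104, 14072 and 16137 counts in the Sox4 libraries. This was 0.341%, 0.257% and 0.256% of all counts in EV, and 0.107%, 0.0844% and 0.0961% in Sox4. The share in every Sox4 library was thus below that in every EV library, on total counts and with no TMM factor.

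**Figure D1:**
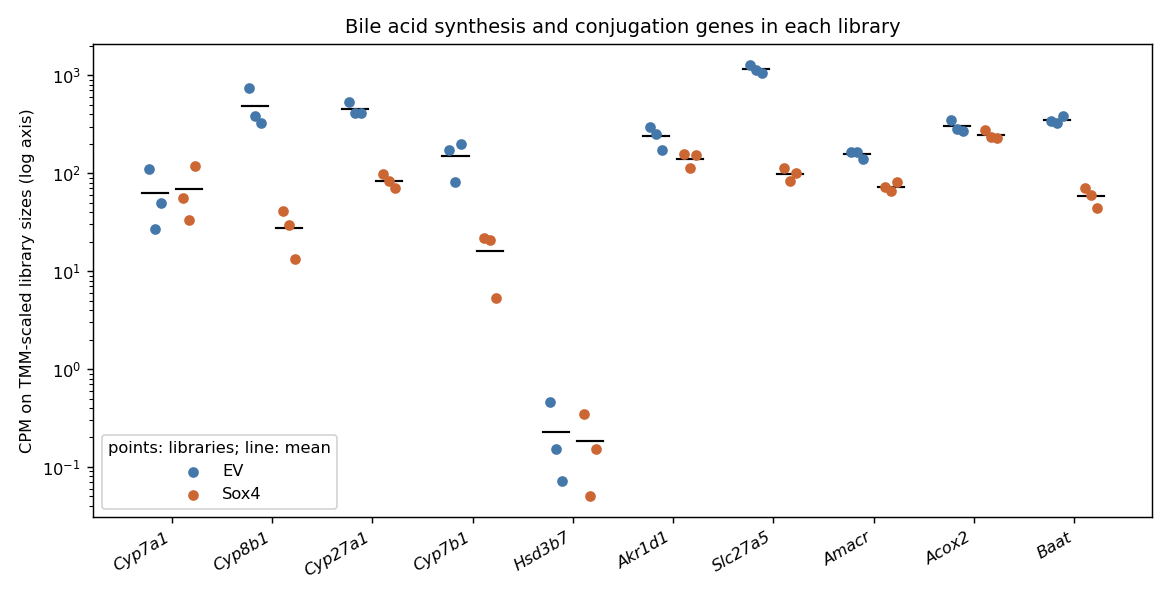
Level of each of the 10 genes in each library, in CPM on TMM-scaled library sizes (log axis), with EV in blue and Sox4 in orange; points are single libraries and lines are group means. Slc27a5, Cyp8b1, Baat and Cyp27a1 separate widely between groups, Cyp7a1 and Acox2 overlap, and Hsd3b7 lies under 0.5 CPM throughout.

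Cyp8b1 had the largest difference. It encodes the sterol hydroxylase that directs synthesis towards cholic acid and away from chenodeoxycholic and muricholic acids. Its level was 741, 380 and 329 CPM in EV and 40.8, 29.6 and 13.2 CPM in Sox4. All EV libraries were far above all Sox4 libraries, with the lowest EV value 8.06 times the highest Sox4 value. The means were 483 ± 224 and 27.9 ± 13.9 CPM (SD, n = 3), 17.3-fold higher in EV, and the log2 fold change was -4.12 (SE 0.60, adjusted p = 0.000941). Counted from the most strongly lowered gene, Cyp8b1 ranked 69 of 12691.

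Cyp7a1, the rate-limiting enzyme of the classical route, did not follow. Its level was 110, 27.0 and 49.3 CPM in EV and 56.1, 33.2 and 118 CPM in Sox4. The groups overlapped, and within each group the highest library was 4.08 times (EV) and 3.57 times (Sox4) the lowest. The means were 62.2 ± 43.0 and 69.2 ± 44.1 CPM (SD, n = 3), and the log2 fold change was 0.15 (SE 0.79, adjusted p = 0.869). The 95% interval of the log2 difference by limma-voom ran from -1.61 to 2.00, so with this spread changes within that range were not excluded. Leaving out single libraries lowered the value to -0.47 (Sox4 replicate 3 left out) or raised it to 0.84 (EV replicate 1 left out), so the direction rests on single libraries.

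Cyp7a1 is known to vary over the day, and 10 clock genes and clock outputs could be tested. Of these, 4 were lower (Nr1d1, Nr1d2, Per2 and Clock) and 6 did not pass (median log2 fold change -0.61), against 26.0% of all tested genes lower. With library size alone none of these was lower, 2 of the list were higher and the median was -0.14. On that scaling 12.8% of all tested genes were lower and 51.0% higher. Dbp, a transcription factor with a strong daily rhythm, had 8.86, 27.0 and 48.7 CPM in EV and 9.87, 20.4 and 9.07 CPM in Sox4 (log2 fold change -1.10, adjusted p = 0.204). Its lowest EV library, replicate 1, was the one with the highest Cyp7a1, and its highest Sox4 library, replicate 2, was the one with the lowest Cyp7a1. The order was not the reverse throughout. In EV, Dbp was highest in replicate 3, whereas Cyp7a1 was lowest in replicate 2. Arntl, the partner of Clock, had 42.0, 23.8 and 11.7 CPM in EV and 22.6, 5.01 and 16.0 CPM in Sox4. Times of harvest were not given in the sources used here, and the part of time of day in the Cyp7a1 values was not tested.

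The balance between the 2 classical-route enzymes was compared within each library. The log2 ratio of Cyp8b1 to Cyp7a1 counts, which needs no scaling between libraries, was 2.75, 3.81 and 2.74 in EV and -0.46, -0.16 and -3.16 in Sox4. All Sox4 libraries lay below all EV libraries, with Sox4 replicate 3 lowest. The ratio is of counts and not per length, so only its difference between groups is read. The difference was -4.36 (exact two-sided permutation test over the 6 libraries, p = 0.1, adjusted p = 0.133 over 4 ratios), where 0.1 is the smallest p that 3 against 3 libraries can give.

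Promoter sequence of 250 bases before the start site was at hand for 5 of the 10 genes (RefSeq, GRCm38.p6, an earlier build than the one used for counting). The windows of the 3 among them that were lower in Sox4 are shown, each 5′ to 3′ on the gene's own strand and ending at the base before the start. They let the window with a match to an HNF4 motif be set beside those without one. Capitals mark the letters CAAAGTCCA, a binding motif of the hepatocyte factor HNF4A. Cyp8b1 lies on the minus strand (chr9:121916306-121916555), and Cyp27a1 (chr1:74713285-74713534) and Akr1d1 (chr6:37529923-37530172) lie on the plus strand.
Cyp8b1: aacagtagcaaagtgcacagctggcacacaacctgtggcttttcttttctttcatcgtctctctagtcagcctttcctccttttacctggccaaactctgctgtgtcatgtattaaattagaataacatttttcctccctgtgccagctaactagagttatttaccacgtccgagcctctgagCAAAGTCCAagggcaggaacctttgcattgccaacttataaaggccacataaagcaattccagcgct
Cyp27a1: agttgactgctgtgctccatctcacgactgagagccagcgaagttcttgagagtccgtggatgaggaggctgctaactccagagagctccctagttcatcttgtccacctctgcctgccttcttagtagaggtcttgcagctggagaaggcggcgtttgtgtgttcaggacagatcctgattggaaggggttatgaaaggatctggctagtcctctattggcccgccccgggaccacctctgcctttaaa
Akr1d1: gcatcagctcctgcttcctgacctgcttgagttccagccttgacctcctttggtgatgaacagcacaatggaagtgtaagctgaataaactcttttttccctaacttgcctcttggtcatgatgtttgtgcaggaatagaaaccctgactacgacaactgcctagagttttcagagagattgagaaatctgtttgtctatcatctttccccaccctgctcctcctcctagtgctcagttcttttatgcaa
The Cyp8b1 match starts 67 bases before the start site on the strand shown. CAAAGTCCA was found, on either strand, in 126 of 32536 distinct promoter windows of this length (0.387%), and in none of the other windows of the genes studied, which were those of Cyp27a1, Akr1d1, Hsd3b7 and Acox2. The LRH-1 letters AAGGTCA (4.09% of windows) and the SOX letters AACAAAG (5.02%) and AACAATG (3.21%) were in none of the 6 windows of the 5 genes, Acox2 having 2. The study gives a shorter SOX motif, ACAAAG, which shares the letters CAAAG with the HNF4A motif. It proposes that SOX4 can bind this shared part. The Cyp8b1 match contains CAAAG, but the base before it is g, so it does not hold ACAAAG. The letters CAAAG also stand, on the other strand, in windows of Akr1d1, Hsd3b7 and Acox2, so they are not particular to Cyp8b1. Their share of all windows was not counted. These letter matches are descriptions and show neither binding nor its absence. No promoter was printed for Cyp7a1, Cyp7b1, Slc27a5, Amacr and Baat.

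Both enzymes of the acidic route were lower. Cyp27a1, the mitochondrial P450 that hydroxylates the sterol side chain, had 533, 408 and 414 CPM in EV and 97.6, 82.4 and 71.4 CPM in Sox4. The libraries of each group lay close together and the groups were far apart. The means were 452 ± 70.5 and 83.8 ± 13.1 CPM (SD, n = 3), and the log2 fold change was -2.43 (SE 0.18, adjusted p = 3.80e-06), or 5.39-fold higher in EV.

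Cyp7b1, the oxysterol hydroxylase that follows Cyp27a1, had 173, 80.5 and 201 CPM in EV and 21.8, 20.9 and 5.27 CPM in Sox4. The groups did not overlap, but Sox4 replicate 3 lay 4.14-fold under the highest Sox4 library. The means were 151 ± 63.0 and 16.0 ± 9.31 CPM (SD, n = 3), and the log2 fold change was -3.24 (SE 0.78, adjusted p = 0.00862).

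Cyp7b1 is known to be higher in male than in female mouse liver. In a list of 11 male-biased liver genes, 10 were lower in Sox4 (median log2 fold change -4.52), and 9 with library size alone. Over all tested genes these shares were 26.0% and 12.8%. The summed level of the 11 was 8203 to 10835 CPM in EV against 3031, 3443 and 940 CPM in Sox4. Mup20, the 1 gene not called (adjusted p = 0.0541), held 4424 to 5699 CPM of this sum in EV. In Sox4 it held most of the sum, at 2581, 2944 and 750 CPM. Sox4 replicate 3 was the lowest Sox4 library for each gene of this list, as it was for Cyp7b1. For Ugt2b38 and Nudt7 the margin was narrow. This was not particular to Cyp7b1, since Sox4 replicate 3 was also the lowest Sox4 library for Cyp8b1, Cyp27a1, Baat and, narrowly, Acox2. For Cyp7a1, Akr1d1, Slc27a5 and Amacr it was not. Of 8 female-biased genes 4 were tested and 3 were higher (median 3.89), and all 4 with library size alone (29.0% and 51.0% of all tested genes). Their summed level was 188, 228 and 378 CPM in the Sox4 libraries against 14.7 to 67.7 CPM in EV, over the 8 genes. Most of the Sox4 sum was Cyp2b9, at 134, 135 and 286 CPM (2.62 to 54.9 CPM in EV). Cyp2b9 was the 1 tested gene not called with TMM (adjusted p = 0.0738). The part of these list differences in Cyp7b1 was not tested.

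The balance between the entry enzymes of the routes was also compared within libraries. The log2 ratio of Cyp7a1 to Cyp27a1 counts was -2.27, -3.91 and -3.07 in EV and -0.80, -1.31 and 0.73 in Sox4. All Sox4 libraries were above all EV libraries, by 2.62 in the mean (exact permutation p = 0.1, adjusted p = 0.133). The log2 ratio of Cyp7b1 to Cyp27a1 was -1.63, -2.34 and -1.04 in EV and -2.16, -1.98 and -3.75 in Sox4. These groups overlapped, with a difference of -0.96 (exact permutation p = 0.3, adjusted p = 0.3). With 3 libraries a group none of the 4 ratios could reach a p under 0.05.

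**Figure D2:**
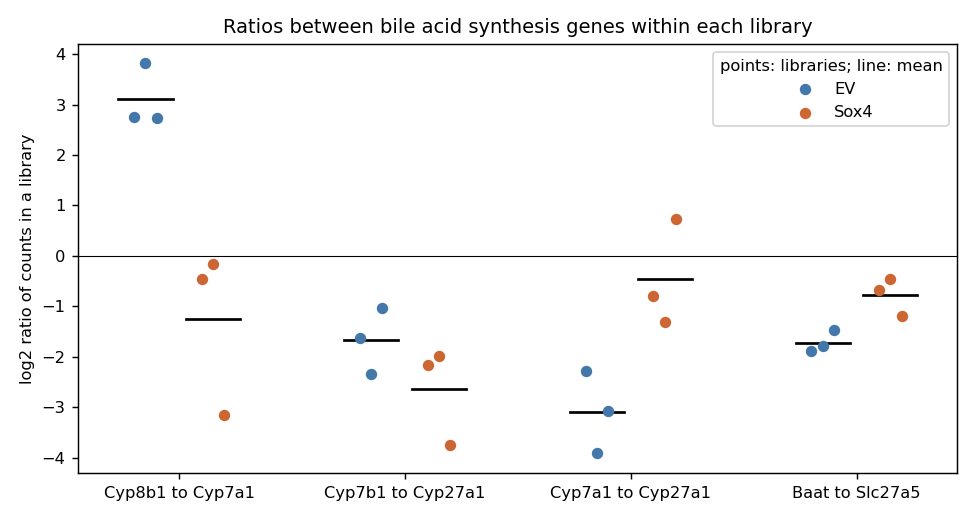
Log2 ratio of the counts of 2 genes within each library (pseudocount 0.5), for EV in blue and Sox4 in orange; points are libraries and lines are group means. The groups are apart for Cyp8b1 to Cyp7a1, Cyp7a1 to Cyp27a1 and Baat to Slc27a5, and they overlap for Cyp7b1 to Cyp27a1.

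P450 enzymes need electrons, which Fdxr and Fdx1 pass to mitochondrial enzymes such as Cyp27a1, and which Por passes to those of the endoplasmic reticulum such as Cyp7a1, Cyp8b1 and Cyp7b1. Fdx1 was lower, at 88.1 ± 4.33 CPM in EV and 32.1 ± 9.34 CPM in Sox4 (SD, n = 3; log2 fold change -1.46, adjusted p = 0.000157). Por was higher, at 220 ± 25.1 and 356 ± 28.7 CPM (log2 fold change 0.69, adjusted p = 0.00181). Fdxr did not pass (log2 fold change -0.33, adjusted p = 0.294), but without Sox4 replicate 1 it was called lower (-0.62, adjusted p = 0.0236).

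Of the ring-modifying enzymes, Akr1d1, the steroid reductase that sets the bent ring shape of bile acids, had 293, 250 and 171 CPM in EV and 157, 112 and 154 CPM in Sox4. The groups did not overlap, though the lowest EV library was only 1.10 times the highest Sox4 library. The means were 238 ± 61.8 and 141 ± 24.7 CPM (SD, n = 3), and the log2 fold change was -0.76 (SE 0.28, adjusted p = 0.0119). With library size alone the value was -0.29 and the call was lost (adjusted p = 0.249).

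Hsd3b7, the dehydrogenase that acts just after the first hydroxylations, had 6, 2 and 1 counts in EV and 7, 1 and 3 counts in Sox4. These counts lie at or near the limit of 3 counts and allow no comparison. In the GENCODE M21 annotation, 62.0% of the 2769 exon bases of Hsd3b7 are shared with Gm49388 on the same strand, and 99.2% are shared with some gene when either strand is considered. Gm49388 had 0 counts in all 6 libraries, and 9430064I24Rik, which lies on the opposite strand, had 1 to 6. Since overlapping genes can lose reads in counting, the Hsd3b7 count is uncertain, and the part of the overlap was not tested.

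Side chain enzymes differed among themselves. Slc27a5, the bile acyl-CoA synthetase, had 1261, 1142 and 1063 CPM in EV and 114, 82.3 and 100.04 CPM in Sox4. It was the most abundant of the 10 genes in EV, and its groups had the widest gap, the lowest EV library being 9.34 times the highest Sox4 library. The means were 1155 ± 99.4 and 98.7 ± 15.8 CPM (SD, n = 3), 11.7-fold higher in EV, and the log2 fold change was -3.55 (SE 0.15, adjusted p = 5.48e-07).

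Amacr, a racemase that readies the side chain for oxidation, had 163, 164 and 141 CPM in EV and 72.7, 65.8 and 80.5 CPM in Sox4. The groups were apart, and Sox4 held 46.8% of the EV mean (156 ± 12.8 and 73.0 ± 7.32 CPM, SD, n = 3). The log2 fold change was -1.10 (SE 0.11, adjusted p = 5.76e-05).

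Acox2, the oxidase of the branched side chain, had 351, 283 and 269 CPM in EV and 277, 233 and 231 CPM in Sox4. The highest Sox4 library lay above the lowest EV library, so the groups overlapped. The means were 301 ± 43.5 and 247 ± 25.9 CPM (SD, n = 3), and the log2 fold change was -0.29 (SE 0.14, adjusted p = 0.121; 95% interval by limma-voom -0.59 to 0.03). Without Sox4 replicate 1 it passed (-0.38, adjusted p = 0.0444), and with library size alone its direction turned (0.18).

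Baat, which joins bile acids to taurine or glycine, had 340, 329 and 384 CPM in EV and 71.0, 59.6 and 44.0 CPM in Sox4. The lowest EV library was 4.64 times the highest Sox4 library. The means were 351 ± 28.8 and 58.2 ± 13.6 CPM (SD, n = 3), and the log2 fold change was -2.59 (SE 0.21, adjusted p = 4.03e-06), 6.03-fold higher in EV. The log2 ratio of Baat to Slc27a5, the step before it, was -1.89, -1.79 and -1.47 in EV and -0.68, -0.47 and -1.18 in Sox4. The ratio was higher in every Sox4 library than in every EV library, by 0.94 in the mean (exact permutation p = 0.1, adjusted p = 0.133).

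**Figure D3:**
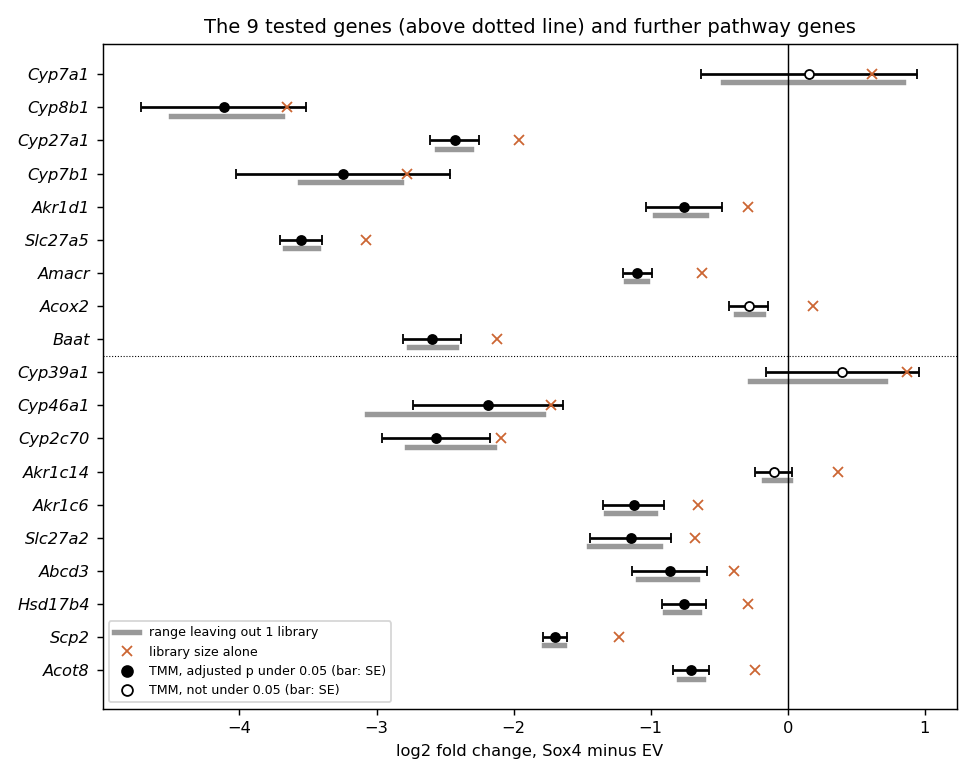
Log2 fold change (Sox4 minus EV) of the 9 tested genes, above the dotted line, and of 10 further genes of the pathway; circles show the TMM fit with SE bars (filled where the adjusted p was under 0.05), grey bars the range when 1 library was left out, and crosses the value with library size alone. Of the 9 genes, 7 are filled and left of 0; each cross lies to the right of its own circle.

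Between the 9 tested genes, levels were compared per length, as CPM per kb of annotated exon, and Hsd3b7 was left out. In EV, Slc27a5 stood highest at 474 ± 40.8 CPM per kb (SD, n = 3), with its libraries above those of all the others. Cyp8b1 (248 ± 115), Cyp27a1 (208 ± 32.4) and Baat (181 ± 14.8) followed, and their libraries overlapped. Akr1d1 (82.4 ± 21.4), Acox2 (81.3 ± 11.8), Cyp7b1 (69.9 ± 29.1) and Amacr (59.9 ± 4.90) formed the next overlapping run. Cyp7a1 was below them at 14.9 ± 10.3 CPM per kb.

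In Sox4 the order was another. Acox2 stood highest at 66.7 ± 6.995 CPM per kb (SD, n = 3), with its libraries above all others. Akr1d1 (48.7 ± 8.55), Slc27a5 (40.5 ± 6.46), Cyp27a1 (38.6 ± 6.05), Baat (29.98 ± 6.99), Amacr (28.02 ± 2.81) and Cyp7a1 (16.6 ± 10.6) followed, each overlapping its neighbour. Cyp8b1 (14.3 ± 7.11) and Cyp7b1 (7.39 ± 4.30) had the lowest means, overlapped each other and both overlapped Cyp7a1. Within Sox4 libraries, Cyp8b1 stood above Cyp7a1 per length in replicate 1 (20.9 against 13.4 CPM per kb) and replicate 2 (15.2 against 7.94), and below it in replicate 3 (6.78 against 28.3), which alone puts the Cyp8b1 mean under that of Cyp7a1.

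Other genes of the pathway were taken from a list of 11, of which 10 were tested and Ch25h had no counts. Of these, 8 were lower, against 26.0% of all tested genes, with a median log2 fold change of -0.99. The 2 that did not pass were Cyp39a1 (0.40, adjusted p = 0.512) and Akr1c14 (-0.10, adjusted p = 0.570). Cyp2c70, which makes the muricholic acids that mark rodent bile, had 652, 591 and 1283 CPM in EV and 154, 110 and 163 CPM in Sox4. All Sox4 libraries were below all EV libraries (log2 fold change -2.56, SE 0.39, adjusted p = 0.000197). Scp2, whose long form is the peroxisomal thiolase that cuts the side chain, had 4758, 4427 and 5452 CPM in EV and 1520, 1517 and 1471 CPM in Sox4 (log2 fold change -1.70, SE 0.09, adjusted p = 1.59e-05). The sterol hydroxylase gene Cyp46a1, with at most 23 counts in a library, was lower (log2 fold change -2.19, adjusted p = 0.0117), a call lost without Sox4 replicate 2 (-1.99), and without Sox4 replicate 3 the value was -3.07.

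The remaining genes called lower were Slc27a2 (-1.15), a peroxisomal acyl-CoA synthetase, the reductase Akr1c6 (-1.12), the peroxisomal importer Abcd3 (-0.86), the bifunctional enzyme Hsd17b4 (-0.76) and the thioesterase Acot8 (-0.71). With library size alone, Abcd3, Hsd17b4 and Acot8 lost their calls and Akr1c14 was called higher (0.37), leaving 5 lower and 1 higher. Several of these enzymes work in peroxisomes. Of 15 genes of peroxisome assembly 9 were lower and 6 did not pass (median log2 fold change -0.53, against 26.0% of all tested genes lower), with the largest difference in Pex16 (-1.38, adjusted p = 0.000356). On library size alone, 4 of the 15 were lower and 5 higher (median -0.06), against 12.8% and 51.0% of all tested genes. The median of the list lay below that of all genes on both scalings (0.04 with TMM and 0.51 with library size alone).

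Liver lobules divide bile acid work by zone, with Cyp7a1 known to be highest near the central vein. Of 10 pericentral genes 4 were lower and 1 higher (median log2 fold change -0.28), and of 10 periportal genes 6 were lower and 4 did not pass (median -1.35). Over all tested genes, 26.0% were lower and 29.0% higher. Scaled by library size alone, 3 pericentral genes were lower and 3 higher (median 0.19), and 6 periportal genes were lower (median -0.88). On that scaling 12.8% of all tested genes were lower and 51.0% higher. The part of zonation was not tested.

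**Figure D4:**
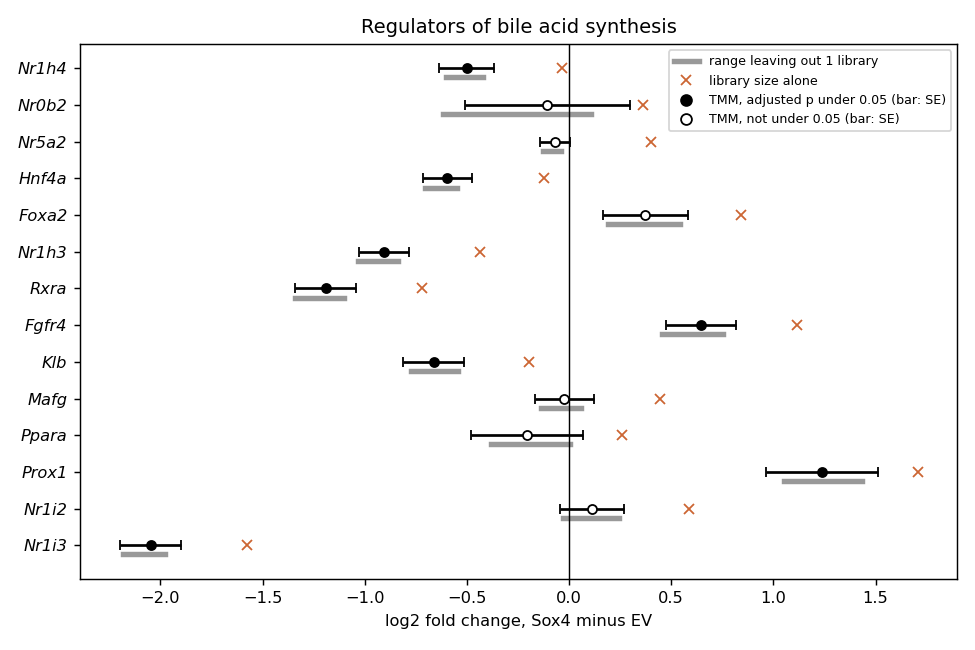
Log2 fold change (Sox4 minus EV) of regulators of bile acid synthesis; circles show the TMM fit with SE bars (filled where the adjusted p was under 0.05), grey bars the range when 1 library was left out, and crosses the value with library size alone. Nr1i3 lies furthest left at -2.05 and Prox1 furthest right at 1.24, and each cross lies to the right of its own circle.

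Regulators of the pathway moved in both directions. Of 15 tested, 7 were lower and 2 were higher (26.0% of all genes were called lower and 29.0% higher), with a median log2 fold change of -0.21. With library size alone 3 were lower and 6 were higher (12.8% of all genes were called lower and 51.0% higher), and the median was 0.26. The largest difference was in Nr1i3 (CAR), a xenobiotic receptor, at 29.3 ± 4.48 CPM in EV and 7.07 ± 0.59 CPM in Sox4 (SD, n = 3; log2 fold change -2.05, adjusted p = 7.64e-06). Rxra, the shared partner of many such receptors, was lower (-1.19, adjusted p = 0.000133), as was the oxysterol receptor Nr1h3 (-0.91, adjusted p = 0.000212). These 3 kept their calls with library size alone.

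Hnf4a, which activates many bile acid genes, had 645, 805 and 789 CPM in EV and 538, 479 and 466 CPM in Sox4. The groups did not overlap, at 66.2% of the EV mean (log2 fold change -0.60, adjusted p = 0.00580). Nr1h4, the bile acid receptor FXR, was lower (-0.50, adjusted p = 0.00882). Both lost their calls with library size alone (-0.12 and -0.03).

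The receptors of the feedback loop were called in opposite directions with TMM. Fgfr4, the receptor for the gut signal, had 59.2, 55.4 and 54.5 CPM in EV and 110, 79.8 and 75.3 CPM in Sox4, higher in every Sox4 library (log2 fold change 0.65, adjusted p = 0.00450). Its co-receptor Klb was lower (-0.66, adjusted p = 0.00269; -0.19 and not called with library size alone). Nr0b2 (SHP), the repressor induced by FXR, had 52.6, 59.2 and 47.3 CPM in EV and 78.4, 33.8 and 35.4 CPM in Sox4, which overlapped (-0.11, adjusted p = 0.805). Without Sox4 replicate 1, its highest library, Nr0b2 was called lower (-0.62, adjusted p = 0.00192). Nr5a2 (LRH-1), an activator of Cyp7a1 and Cyp8b1 (-0.07, adjusted p = 0.598), and Mafg, a repressor of Cyp8b1 (-0.02, adjusted p = 0.896), did not pass, and neither did Ppara (-0.21), Nr1i2 (0.11) or Foxa2 (0.37). Foxa2 was called higher without EV replicate 1 (0.54), without the filter on low counts (0.41, adjusted p = 0.0210), and with library size alone (0.84, adjusted p = 0.00201). Nr1i2 was also called higher with library size alone (0.59).

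Prox1, a corepressor of Cyp7a1 transcription, was higher, with 108, 89.1 and 118 CPM in EV and 173, 261 and 307 CPM in Sox4. All Sox4 libraries were above all EV libraries (log2 fold change 1.24, SE 0.27, adjusted p = 0.000845).

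Of 12 listed transporters of bile acids and related lipids, 10 were tested, 5 were lower, 3 were higher and 2 did not pass (median log2 fold change -0.48). The 3 of 10 higher are close to the 29.0% of all tested genes, of which 26.0% were lower. The median was -0.01 with library size alone, where 4 were lower and 3 higher. Slc10a1 (NTCP), the main importer of conjugated bile acids, was at 717 ± 32.9 CPM in EV and 76.7 ± 38.2 CPM in Sox4 (SD, n = 3; log2 fold change -3.22, adjusted p = 5.73e-05), and Slco1a1 (-5.21), Slco1b2 (-2.07), Abcc3 (-1.30) and the flippase gene Atp8b1 (-0.70, a call lost with library size alone) were also lower. Higher were the exporters Abcc4 (0.909 ± 0.737 to 33.4 ± 2.14 CPM; 5.19, and 6.06 without EV replicate 2) and Abcc2 (0.93) and the importer Slco1a4 (2.51). The bile salt export pump Abcb11 did not pass (-0.26, adjusted p = 0.160), nor did the phospholipid exporter Abcb4 (-0.08).

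The mean profile of the 9 tested genes, as log2 CPM centred on the EV mean, was 0.34, -0.24 and -0.10 in EV and -1.74, -2.09 and -2.19 in Sox4. Among 9016 other genes whose mean count reached 100, the 5 whose profiles over the 6 libraries were nearest by root mean square difference were Gcat (0.132), Selenoo (0.140), Trabd (0.155), Naprt (0.158) and Sfxn5 (0.174). Their log2 fold changes ran from -2.14 (Naprt) to -2.003 (Trabd).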

How the data were processed

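Bulk RNA-seq counts of 6 hepatocyte libraries (3 EV, 3 Sox4) were analysed. The authors aligned reads with STAR to GRCm39 and deposited raw counts per gene made with featureCounts 2.0.1, and they also deposited a normalized signal, the counts divided by DESeq2 median-of-ratios size factors. Which annotation was counted, whether strand was used and how multiply placed reads were treated are not given in the sources used here. The STAR version is not given because the sources differ on it.

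Counts were compared in R 4.3.3 with edgeR 4.0.16 (filterByExpr with a minimum count of 10 and a minimum total of 15, TMM, robust quasi-likelihood F test, no covariate). P-values were Benjamini-Hochberg adjusted over the 12691 genes tested, with a threshold of 0.05, and adjusted p-values come from this fit unless another test is named. SE denotes the standard error of the Sox4 minus EV mean in log2 CPM (prior count 2). Ratios between genes used counts plus 0.5 and an exact permutation test over libraries. The limit of 3 counts was 0.150 to 0.231 CPM per library, and it covers counting error only.

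The 6 libraries came from separate mice, according to the study. Replicate pairs differed by more than counting noise (chi-square per degree of freedom 19.3 to 69.8). Alternatives used DESeq2 1.42.0, limma 3.58.1, other scalings and filters, a replicate block and each library left out. Exon lengths and overlaps came from GENCODE M21 on GRCm38, not the build of the counts. Named were the 10 genes, members of the lists where they passed the threshold or a sentence turned on them, and the 5 nearest profiles. One regulator is counted in the totals of its list but is not reported here. The genes, lists and motif letters were chosen with earlier results of these data known. Of the lists, Bmal1 (in the table as Arntl) and Tf (in the table as Trf) had no entry under those symbols, and both were read after the data were seen. The values of every list with library size alone were also added then.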

Additional observations from a re-analysis of the deposited data

How the results depend on the processing

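Between 6 and 8 of the 9 tested genes were lower under every alternative, and 0 were higher. The count was 8 without Sox4 replicate 1 and 6 with library size alone or with a replicate block. Same-numbered libraries did not all deviate together (correlations 0.27, -0.09 and 0.13, against -0.27 to 0.18 between other numbers). The 0.27, between the libraries of replicate 1, was the highest of all pairs. The numbers were not taken to pair the libraries. Under the replicate block Cyp7b1 lost its call (-3.29, adjusted p = 0.0960) and Foxa2 gained one (0.39, adjusted p = 0.0479). Over all genes, 6990 were called, against 7362 with the block (6853 shared) and 8092 with library size alone (5308 shared). Of 126 values of the single genes under the alternatives, 119 kept their direction and side of the threshold, 2 lost and 1 gained a call, and 4 turned direction; of 531 values of listed genes, 494, 10, 7 and 20 did.

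With library size alone, 5 further pathway genes were lower and 1 higher, and 3 regulators were lower and 6 higher. That setting turned the direction of Acox2 (0.18), Akr1c14 (0.37), Nr0b2 (0.36), Nr5a2 (0.40), Mafg (0.45), Ppara (0.26), Abcb11 (0.21), Abcb4 (0.39) and Fdxr (0.14). It moves the median of all genes by 0.47, by construction of the scaling. Mafg also turned without a filter (0.018) and when genes needed a mean count of 50 (0.0038). Leaving out 1 library gave ranges through 0 for Cyp7a1 (-0.47 to 0.84), Cyp39a1 (-0.28 to 0.71), Akr1c14 (-0.17 to 0.017), Nr0b2 (-0.62 to 0.11), Mafg (-0.14 to 0.057), Ppara (-0.38 to 0.0029), Nr1i2 (-0.028 to 0.25) and Abcb4 (-0.28 to 0.044), and the cause was not tested. The 4 ratios between genes kept their direction under every alternative. With 3 libraries a group, the spread of Cyp7a1, not its depth of 356 to 2335 counts, limited what could be seen.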
